A study of Mus musculus with 7 samples.

Results

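Col5a1, Col5a2, Col5a3, Col6a1, Col6a2 and Col6a3, the genes for the chains of collagen V and the main chains of collagen VI, were examined in peak lists from mouse muscle stem cells (MuSCs). The 6 genes were listed by name and are 6 of 55413 genes of GENCODE release M21 on the autosomes, X and Y. For each gene, all regions called by the peak caller MACS in the gene body and within 20 kb on either side were taken, which gave 117 of the 122720 regions open in any ATAC library. All coordinates are on mouse build GRCm38 (mm10).

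The study asked what the telomere protein TRF2 does in MuSCs. ATAC-seq, which marks accessible DNA by transposase insertion, gave 2 Control and 2 TRF2KO libraries from hind limb MuSCs labelled 0 h. By the methods, TRF2KO mice carried TRF2-floxed alleles and Pax7 CreERT2, a tamoxifen-induced recombinase driven in MuSCs, but the genotype field of all 7 libraries reads wild type and the titles were used here. CUT&Tag, which marks the sites of a protein by an antibody-guided transposase, gave 2 TRF2 libraries and 1 IgG library, labelled tibialis anterior MuSCs at 3 days after notexin, a muscle toxin. The methods place CUT&Tag at an earlier time after injury, in control Pax7gCre/gCre;TdTomatofl/fl mice, and add gastrocnemius muscle, so time and tissue are uncertain, and the catalogue number of the TRF2 antibody also differs between labels and methods. TRF2 occupancy thus came from injured muscle, and accessibility from cells labelled 0 h. By the methods tamoxifen injections began in young adult mice and were repeated every other day, while the interval to ATAC-seq and the number of mice behind each library are not given in the sources used here.

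Collagen V is a fibrillar collagen built from several alternative chains, and collagen VI forms beaded microfilaments next to the basement membrane. Both belong to the niche in which MuSCs rest: collagen V made by MuSCs under Notch signalling, through its DNA-binding partner RBPJ, keeps them quiescent through the Calcitonin receptor, and collagen VI, made largely by interstitial fibroblasts, supports their self-renewal. TRF2 binds telomeric repeats and has been linked to guanine quadruplexes (G4), folded structures of G-rich DNA.

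Sequences at 3 start sites are shown, chosen because TRF2 peaks and G4 letters do not coincide there. Capitals mark whole G4 matches, loops included: 4 G runs, each 3 or more long, separated by 1 to 7 other or further G bases, shown as C runs where the match is on the opposite strand. Each run covers 250 bases before and 20 bases after the RefSeq start, from the RefSeq table on GRCm38.p6, 5′ to 3′ along the gene. The table holds Col5a1, Col5a3, Col6a1, Col6a2 and Col6a3, and Col5a2 is named only.
Col5a1, chr2:27886175-27886444, plus strand: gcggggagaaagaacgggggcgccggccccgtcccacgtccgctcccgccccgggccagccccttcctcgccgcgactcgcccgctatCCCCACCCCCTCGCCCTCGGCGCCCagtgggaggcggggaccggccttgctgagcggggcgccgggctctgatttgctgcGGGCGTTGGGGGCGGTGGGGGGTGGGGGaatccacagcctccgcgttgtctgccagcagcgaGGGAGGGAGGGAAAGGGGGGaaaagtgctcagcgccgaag
Col5a3, chr9:20815048-20815317, minus strand: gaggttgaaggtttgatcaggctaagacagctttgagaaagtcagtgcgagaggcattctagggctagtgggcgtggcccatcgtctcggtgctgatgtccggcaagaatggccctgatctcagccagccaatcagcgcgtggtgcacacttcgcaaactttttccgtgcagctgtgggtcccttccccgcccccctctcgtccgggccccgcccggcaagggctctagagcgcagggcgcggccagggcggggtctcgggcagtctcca
Col6a2, chr10:76623611-76623880, minus strand: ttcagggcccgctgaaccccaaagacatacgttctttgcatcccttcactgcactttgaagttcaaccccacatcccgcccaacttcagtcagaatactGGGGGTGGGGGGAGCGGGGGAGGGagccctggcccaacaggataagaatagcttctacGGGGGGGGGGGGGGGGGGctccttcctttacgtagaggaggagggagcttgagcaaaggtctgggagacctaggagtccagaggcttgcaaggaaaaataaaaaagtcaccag
The Col5a1 sequence held 3 matches and no TRF2 peak, the Col6a2 sequence 2 matches and no TRF2 peak, and the Col5a3 sequence no match and a TRF2 peak in both libraries. Among the windows not printed, that of Col6a1 held 1 match and a TRF2 peak in 1 library, that of Col6a3 held no match and no TRF2 peak, and a second Col6a2 window held 1 match and no TRF2 peak. Of 32851 promoter windows in the table, 18.6% held a match. The TRF2 peaks at the Col5a3 start held a match only when loops of up to 12 bases were allowed.

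Outside the start, TRF2 regions (peaks in both TRF2 libraries that share at least 1 bp) occurred at 2 places in the Col5a3 window, and 300 bases around the mean summit of each are printed along the minus strand. Capitals mark the G4 match in the first and, in the second, TTCCCAC, the reverse complement of the letters GTGGGAA that RBPJ recognises.
Col5a3 intron 1, chr9:20812781-20813080: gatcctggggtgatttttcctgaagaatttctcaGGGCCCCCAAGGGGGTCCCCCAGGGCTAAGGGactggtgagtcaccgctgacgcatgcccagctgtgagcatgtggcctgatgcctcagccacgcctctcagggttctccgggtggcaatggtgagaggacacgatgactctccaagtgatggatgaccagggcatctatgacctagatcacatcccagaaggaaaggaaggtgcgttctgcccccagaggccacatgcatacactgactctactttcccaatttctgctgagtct
Beyond the Col5a3 3′ end, chr9:20760817-20761116: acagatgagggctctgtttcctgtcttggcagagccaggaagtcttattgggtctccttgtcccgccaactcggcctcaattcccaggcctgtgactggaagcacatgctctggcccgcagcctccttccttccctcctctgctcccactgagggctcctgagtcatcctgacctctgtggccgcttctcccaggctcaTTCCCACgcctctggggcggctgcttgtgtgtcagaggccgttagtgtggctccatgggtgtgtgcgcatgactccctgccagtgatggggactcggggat
At the Col6a1 start, where a single TRF2 library had a peak, 2 short matches lay in that peak, printed with their G runs in capitals and read on the plus strand.
Col6a1, chr10:76725954-76725973: GGGtcaGGGtGGGcgctGGG
Col6a1, chr10:76726038-76726055: GGGaGGGtggaGGGaGGG

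The libraries differed in length of list and in depth. MACS listed 89160 and 100521 peaks in Control replicates 1 and 2, 84776 and 84102 in TRF2KO, 12290 and 15479 for TRF2 and 656 for IgG. The median background pileup, solved from the fold and Poisson p of 170 to 175 peaks a library, was 3.37 and 3.41 fragments in TRF2KO, 3.35 in Control replicate 1 and 4.56 in Control replicate 2, the highest of the ATAC libraries. A fold is the authors' ratio of summit pileup to background within a library, with 1 fragment added to each in the values as deposited, so libraries were compared by the percentile of a peak's fold in its own list, with 100 the highest. Because lists of unequal length shift such percentiles, counts over regions were repeated with the shared percentile, taken among the 61610 regions with a MACS peak in all 4 ATAC libraries (called open here), and counts over start sites with the percentile among the 13286 coding starts open in all 4. The targeted gene Terf2 had start-site folds of 54.3 and 48.4 in Control and 21.5 and 18.6 in TRF2KO, with no overlap between the groups. The p-values place a difference among the 6 ways of assigning the libraries to the groups, and are not a measure of spread. With 2 libraries against 2 the smallest exact two-sided permutation p is 0.333, so no single comparison could pass 0.05.

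Marker genes were counted by their start sites, within 1 kb. All 8 MuSC markers (Pax7, Myf5, Itga7, Vcam1, Sdc4, Chrdl2, Fgfr4 and Cdh15) had a peak in all 4 ATAC libraries, 5 of them with lower percentiles in both TRF2KO libraries and none with higher, and none of the 4 immune markers (Ptprc, Itgam, Csf1r and Cd3e) had a peak in any. Of the 6 markers of fibro-adipogenic progenitors, the interstitial fibroblasts, 3 had a peak in all 4 libraries. The summed fold of the 6 was 169 and 144 in Control against 71.8 and 141 in TRF2KO, and 2 of the 3, Dpt and Cd55, had lower percentiles in both TRF2KO libraries. Dpt alone was 28.1 in TRF2KO replicate 1 and 100.1 in replicate 2. Of all 34 markers, 20 had a peak in all 4 libraries, of which 11 were lower and 0 higher, where 28.6% and 9.13% of coding starts were. Ranked among coding starts, 11 were lower and 2 higher, where 21.9% and 23.2% were. By the methods the sort took cells negative for Sca1, a surface marker of these progenitors, and its gene Ly6a had a start-site peak in 1 library, TRF2KO replicate 1. The part of such cells in the collagen values was not tested, and with bulk cells a smaller number of open cells and less opening per cell cannot be told apart.

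The 6 windows differed in how many regions they held. Col5a1 (ENSMUSG00000026837.15, chromosome 2, 27886425 to 28039514, plus strand) had the most, with 34 and 47 peaks in Control and 30 and 28 in TRF2KO over 193 kb. Col5a2 (ENSMUSG00000026042.16, chromosome 1, 45374321 to 45503282, minus strand) had the fewest in Control, with 3 and 3 there and 5 and 5 in TRF2KO over 169 kb. The window of Col5a2 is thus nearly as long as that of Col5a1 and had 1.55% to 1.81% of its bases in peaks, against 12.0% to 18.6% for Col5a1. Col5a3 (ENSMUSG00000004098.7, chromosome 9, 20770050 to 20815067, minus strand) had 14 and 21 peaks in Control and 14 in each TRF2KO library.

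The collagen VI genes had between 5 and 14 peaks. Col6a1 (ENSMUSG00000001119.7, chromosome 10, 76708792 to 76726168, minus strand) had 8 and 9 peaks in Control and 8 and 7 in TRF2KO. Col6a2 (ENSMUSG00000020241.13, chromosome 10, 76595762 to 76623630, minus strand), which follows Col6a1 on the same strand, had 5 and 7 in Control and 5 and 6 in TRF2KO. Col6a3 (ENSMUSG00000048126.16, chromosome 1, 90765923 to 90843971, minus strand), the chain with the most von Willebrand factor A domains, had 11 and 14 in Control and 11 and 10 in TRF2KO. At every gene but Col5a2 the highest number was in Control replicate 2.

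**Figure D1:**
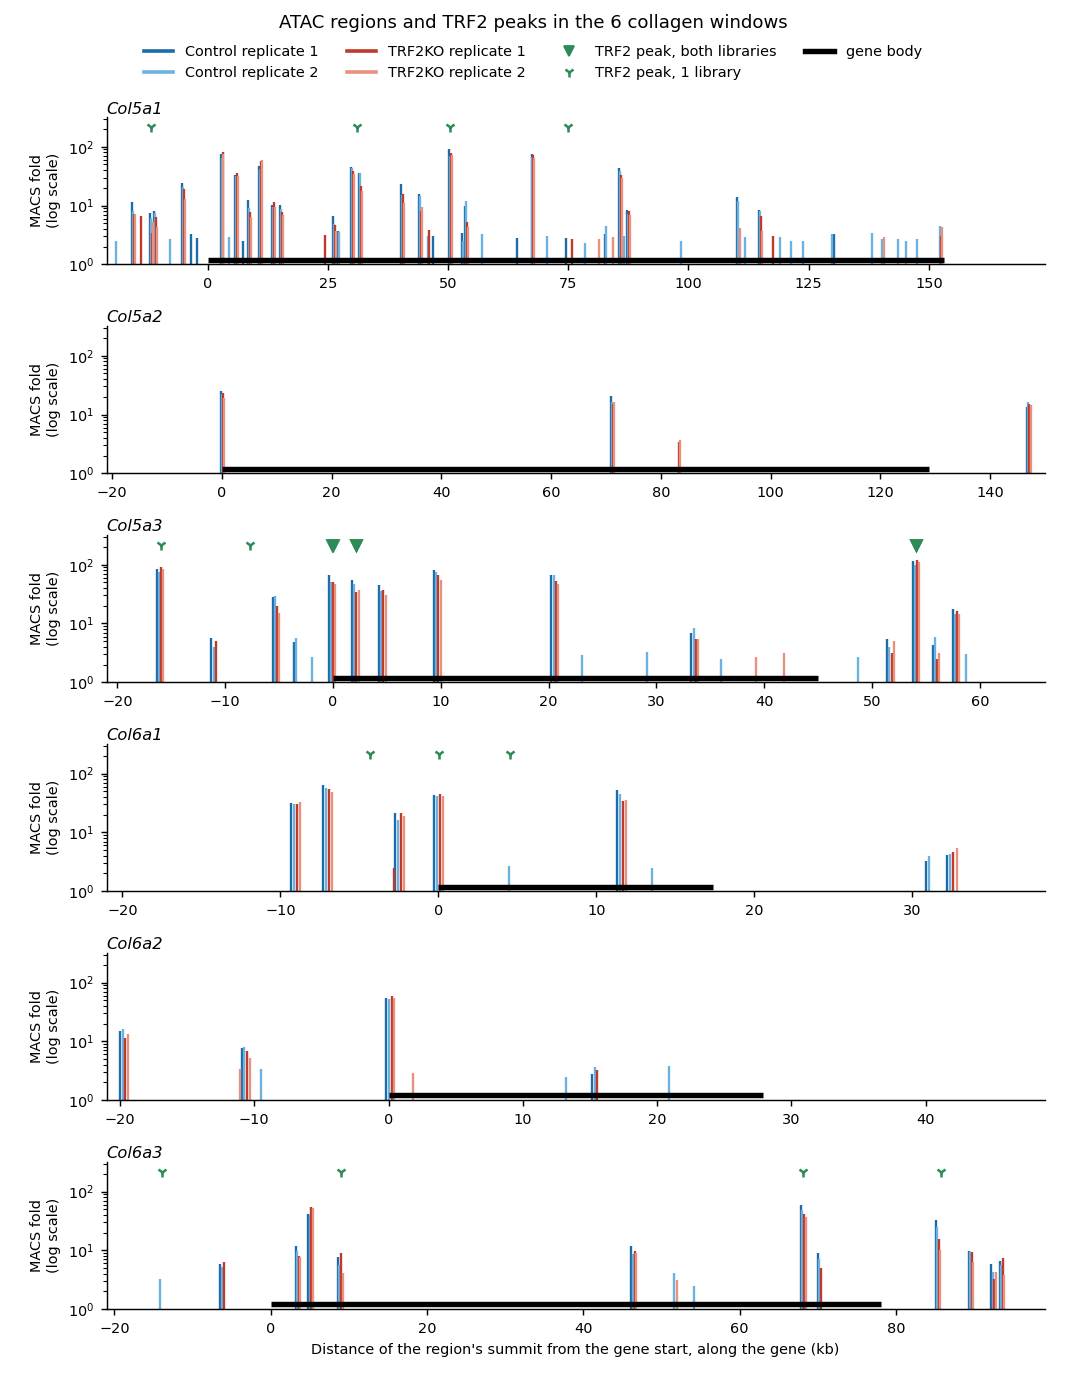
Fold of each ATAC region (vertical lines, log scale, 1 colour per library, drawn side by side within 0.3 kb) by the distance of its summit from the gene start, with TRF2 peaks as green marks at the top and the gene body as a black bar. Filled triangles, TRF2 peaks in both libraries, stand only in the Col5a3 window, at the start, at +2.12 to +2.15 kb and near +54.1 kb.

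Summed over the 6 windows, MACS listed 75 and 101 peaks in Control and 73 and 70 in TRF2KO. The means were 88.0 ± 18.4 and 71.5 ± 2.12 (SD, n = 2 each), a difference of -16.5 peaks (exact two-sided permutation p = 0.333). Without Control replicate 2 the difference was -3.50 peaks, so that library set most of it. As a share of each list the 6 windows held 8.41 and 10.0 of every 10000 peaks in Control and 8.61 and 8.32 in TRF2KO, so the groups overlapped once list length was allowed for. Peaks covered 65.3 and 76.8 kb in Control and 59.4 and 53.9 kb in TRF2KO, a difference of -14.4 kb (exact two-sided permutation p = 0.333).

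Base pairs in peaks were lower in both TRF2KO libraries than in both Control libraries at Col5a1, Col5a3, Col6a1 and Col6a3, that is at 4 of 6 windows, as at 43.2% of 18339 protein-coding gene windows with a peak. At Col5a1 the values were 29.4 and 36.0 kb in Control against 24.7 and 23.1 kb in TRF2KO. Col6a2 overlapped between the groups, at 4.42 and 6.30 kb against 4.94 and 3.61 kb. Col5a2 was the window with more in both TRF2KO libraries, 2.62 and 2.85 kb against 3.06 and 2.88 kb, which 5.53% of coding windows showed. Peak number was lower in both TRF2KO libraries at Col5a1, against a background of 17.0%, and higher at Col5a2, against 3.32%. The Col5a2 window held only 4 merged regions, 1 of them TRF2KO-specific. With 5 peaks in each TRF2KO library, a merged region there held more than 1 peak.

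Of the 117 regions, 54 (46.2%) were open in all 4 libraries, near the 50.2% of all regions, and 48 were listed in 1 library, 30 of them in Control replicate 2. Open regions had a median width of 1177 bp, and the remaining regions a median of 281 bp. By the summit, 28 of the 54 lay in introns, 12 upstream of the gene start, 10 beyond the 3′ end and 4 in exons. Intronic regions dominated Col5a1, with 17 of its 21 open regions, whereas 4 of 12 at Col5a3 and 4 of 9 at Col6a3 lay beyond the 3′ end. Col6a2 had no open region inside the gene away from its start.

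Start-site peaks, those within 1 kb of the gene start, were found in all 4 ATAC libraries at every gene except Col6a3, as at 60.6% of coding genes. In Control the order by percentile was Col5a1 (94.0 and 94.7), Col5a3 (92.7 and 92.0), Col6a2 (90.0 and 92.4), Col6a1 (87.1 and 89.6) and Col5a2 (77.8 and 80.2). Col5a3 and Col6a2 were neighbours whose values overlapped, and the remaining neighbours did not overlap. In TRF2KO the percentile was 94.5 and 94.2 for Col5a1, 90.9 and 90.5 for Col6a2, 89.1 and 88.8 for Col5a3, 87.2 and 87.3 for Col6a1 and 76.2 and 73.5 for Col5a2. Col5a3 thus stood below Col6a2 in both TRF2KO libraries, and no neighbours overlapped there.

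**Figure D2:**
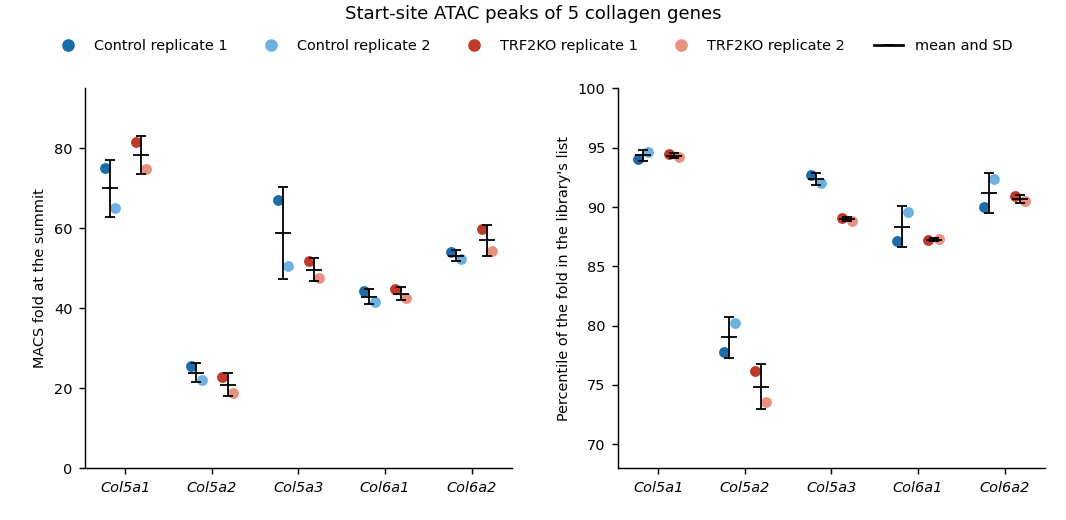
Start-site fold (left) and its percentile in the library's own list (right, on an axis that does not start at 0) for the 5 genes with a start-site peak, with 1 point per library and the mean ± SD of each group. Percentiles of Col5a2 and Col5a3 are lower in both TRF2KO libraries, and those of Col5a1, Col6a1 and Col6a2 overlap.

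The Col5a3 start lay under a peak from 20814648 to 20815607 in Control replicate 1, with its summit at -0.07 kb. Its fold was 67.0 and 50.6 in Control against 51.7 and 47.7 in TRF2KO, at 290 and 280 against 225 and 209 summit fragments. The folds overlapped between the groups and the percentiles did not, with a difference of -3.39 points (exact two-sided permutation p = 0.333). Ranked among the 13286 coding starts open in all 4 libraries, the values were 64.5 and 57.5 in Control and 50.7 and 51.1 in TRF2KO, again without overlap.

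For Col5a2, which encodes a chain shared by most collagen V molecules, the start-site fold was 25.5 and 22.1 in Control against 22.9 and 18.8 in TRF2KO. Percentiles were lower in both TRF2KO libraries (77.8 and 80.2 against 76.2 and 73.5), with a difference of -4.16 points (exact two-sided permutation p = 0.333). These 2 genes, Col5a2 and Col5a3, were the members called lower of the 5 with a start-site peak, where the background over coding starts was 28.6%, and no member was called higher, where it was 9.13%. Ranked among coding starts, Col5a2, Col5a3 and Col6a1 were lower (background 21.9%) and Col5a1 was higher (background 23.2%).

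Col5a1 had the widest start-site peak, 4641 and 4748 bp in Control and 4475 and 5090 bp in TRF2KO. Its summit lay at +3.01 kb in intron 1, and the peak also covered the start of 2810430I11Rik at +627 bp, a minus-strand transcript that overlaps Col5a1 and is read back across its start, so the 2 starts were not resolved. The fold was 75.0 and 65.0 in Control against 81.7 and 74.9 in TRF2KO, with a percentile difference of -0.020 points (exact two-sided permutation p = 1). The order of the libraries depended on the scale, and the shared percentile was higher in both TRF2KO libraries, by 0.92 points.

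The 2 collagen VI start sites with a peak overlapped between the groups by percentile. Col6a1 had folds of 44.2 and 41.6 in Control and 44.8 and 42.4 in TRF2KO, with a percentile difference of -1.08 points (exact two-sided permutation p = 1). Col6a2 had folds of 54.1 and 52.2 in Control and 59.7 and 54.2 in TRF2KO, higher in both TRF2KO libraries by fold, with a percentile difference of -0.50 points (exact two-sided permutation p = 1). By the shared percentile both differences turned positive, at 0.43 and 0.75 points, still with overlapping libraries.

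Col6a3 had no peak within 1 kb of its annotated start in any library, as at 33.4% of coding genes. The nearest open regions lay in intron 1, at +3.51 and +5.08 kb. The region at +5.08 kb (chromosome 1, 90837839 to 90839541) also covers the start of Gm36970, a gene model still to be experimentally checked. Its fold was 42.3 and 40.5 in Control against 54.4 and 52.4 in TRF2KO, higher in both TRF2KO libraries by fold, percentile and shared percentile. The region at +3.51 kb (90840148 to 90840816) went the other way, with folds of 11.7 and 9.72 in Control and 8.0 and 7.72 in TRF2KO.

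The genes whose 4 start-site percentiles lay nearest to each member's were found among coding genes. They were Psma4 and AY074887 for Col5a1 (largest difference 0.15 points over 4 libraries for each), App and Fndc3c1 for Col6a1 (0.16 and 0.22 points), and Nupl2 and Cebpb for Col6a2 (0.34 and 0.38 points). For Col5a3 they were Sema3b and Traf4 (0.60 and 0.65 points), and for Col5a2 they were Rftn1 and Zfp383 (0.80 points for each).

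Over the 54 open regions, the percentile was lower in both TRF2KO libraries than in both Control libraries at 36 (66.7%), where the background over 61610 regions was 44.1%, and higher at 2 (3.70%), where it was 8.94%. With the shared percentile the counts were 31 lower (57.4%) and 10 higher (18.5%), against backgrounds of 26.0% and 28.9%. By the fold itself they were 27 and 5 of 54 (9.26% higher), against 29.9% and 18.5%. On each scale the share of lower regions was above its background. The median difference was -5.66 points by percentile and -3.92 points by shared percentile, beside -2.25 and 0.28 points over all open regions.

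**Figure D3:**
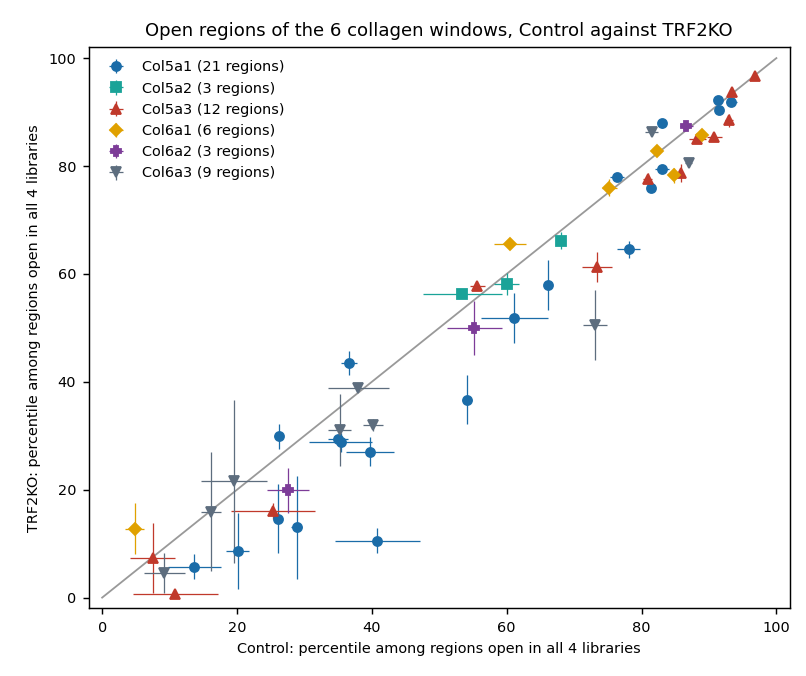
Mean shared percentile of each of the 54 open regions in Control (horizontal) and TRF2KO (vertical), by gene, with bars from the lower to the higher library and the line of equal values in grey. By this scale 31 regions are lower and 10 higher in both TRF2KO libraries.

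The genes differed in these counts. By percentile, 16 of 21 open regions were lower at Col5a1, 10 of 12 at Col5a3, 5 of 9 at Col6a3, 2 of 3 at Col5a2, 2 of 6 at Col6a1 and 1 of 3 at Col6a2. By shared percentile, 15 were lower and 5 higher at Col5a1, 9 lower and 2 higher at Col5a3, 3 lower and 1 higher at Col6a3, and 2 lower and 2 higher at Col6a1. Most of the 31 lower regions were thus at Col5a1 and Col5a3. Without the Col5a1 window, 20 of the other 33 regions were lower by percentile (60.6%), against 44.1% of all open regions. The share was 83.3% at Col5a3, 66.7% at Col5a2 and 55.6% at Col6a3. It was 33.3% at Col6a1 and at Col6a2, below that background. By shared percentile it was 71.4% at Col5a1, 75.0% at Col5a3 and 33.3% at each other gene, against a background of 26.0%.

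Col5a1, whose chain is found in most collagen V, had its 2 strongest regions away from the start deep in the gene. The first, in intron 4 at +50.5 kb (27935172 to 27937493), had folds of 91.1 and 70.0 in Control and 79.6 and 72.6 in TRF2KO. The second, in intron 9 at +67.7 kb (27953183 to 27955051), had 74.8 and 66.2 in Control and 73.2 and 64.9 in TRF2KO. Folds overlapped at both, while percentiles did not, with small differences of -1.62 and -1.47 points.

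Larger gaps at Col5a1 were at weaker regions. In intron 4 at +53.9 kb (27940020 to 27940905) the fold was 9.90 and 11.9 in Control against 5.26 and 4.31 in TRF2KO, and the percentile 53.5 and 67.2 against 30.9 and 24.6. In intron 1 at +8.76 kb (27894450 to 27896407) the fold was 12.2 and 9.18 in Control against 7.78 and 6.36 in TRF2KO. A neighbouring intron 1 region at +11.0 kb (27896473 to 27897866) had 47.6 and 41.8 in Control and 58.1 and 59.9 in TRF2KO. These adjacent intron 1 regions differed in opposite directions, each with no overlap between the groups by fold or percentile.

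Col5a3, which encodes the third collagen V chain, had 6 open regions at its start or in its introns. All 6 were lower in both TRF2KO libraries by percentile and shared percentile, and 4 of them by the fold itself. In intron 6 at +9.68 kb (20804004 to 20806626), near the start of the small RNA gene Gm26274, the fold was 80.3 and 75.2 in Control against 67.9 and 54.9 in TRF2KO. In intron 27 at +20.6 kb (20793386 to 20795091) it was 67.7 and 67.3 in Control against 53.3 and 47.9 in TRF2KO. The largest gaps in percentile were at a weak region at +55.95 kb (20758725 to 20759444), with folds of 4.37 and 5.94 against 2.52 and 3.18, and at a stronger one upstream at -5.31 kb (20820023 to 20820698), with 28.5 and 29.7 against 19.9 and 15.2.

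The strongest elements of the Col5a3 window lay outside the gene. The first, at +54.1 kb and beyond the 3′ end (20760031 to 20762046), had folds of 117 and 101 in Control and 119 and 111 in TRF2KO, the highest of all 54 regions, and lies nearest to the start of Olfm2 among coding starts, 14665 bp away. The second, at -16.0 kb (20830432 to 20831722), had 84.7 and 76.7 in Control and 90.8 and 85.8 in TRF2KO. The folds of the first overlapped, while its percentile was lower in both TRF2KO libraries by a difference of -0.43 points. The second was higher in both TRF2KO libraries by fold and shared percentile and overlapped by percentile.

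**Figure D4:**
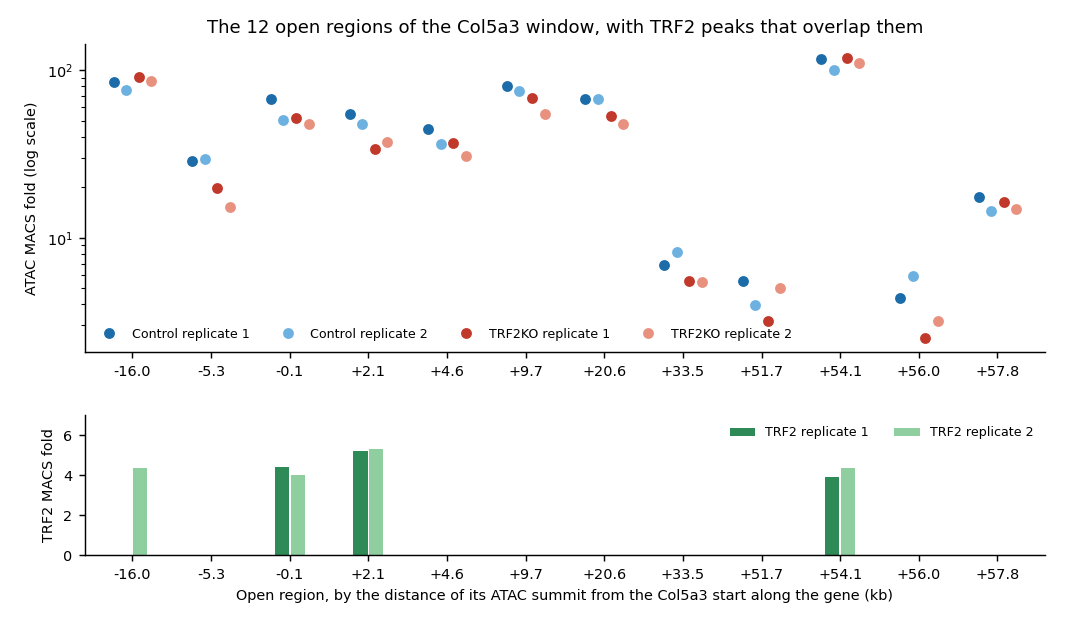
Folds of the 12 open regions of the Col5a3 window in each ATAC library (upper panel, log scale) and of the TRF2 peaks that overlap them (lower panel), ordered by distance from the start. TRF2 peaks in both libraries stand at -0.1, +2.1 and +54.1 kb, and the 2 regions with the highest folds, at -16.0 and +54.1 kb, are not lower in TRF2KO by fold.

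The collagen VI windows gave mixed directions. At Col6a1 the region at -7.01 kb, which covers the start of the long noncoding gene Gm48276 (76729753 to 76734202), had folds of 64.4 and 56.9 in Control and 54.9 and 48.6 in TRF2KO, and the region in intron 23 at +11.6 kb (76713780 to 76715082) had 52.7 and 44.5 against 33.6 and 36.1. Both were lower on each of the 3 scales. By the shared percentile 2 others, at -2.45 and +32.5 kb, were higher, so that the median shared difference at Col6a1 was 0.61 points.

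Col6a2 had upstream regions at -10.6 kb (76634066 to 76634683), with folds of 7.82 and 8.10 in Control and 6.86 and 5.22 in TRF2KO, and at -19.7 kb (76641606 to 76644885), with 15.0 and 16.6 against 11.2 and 13.6. The first was lower in both TRF2KO libraries on each scale, and the second by fold, with overlapping percentiles.

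Col6a3 was lower in coding exon 40 at +68.2 kb (90775120 to 90776299), with 59.6 and 49.3 in Control and 41.4 and 37.2 in TRF2KO, and beyond the 3′ end at +85.4 kb (90757632 to 90758985), with 32.9 and 25.0 against 15.8 and 9.99. The second was the largest gap of the collagen VI windows, at 14.1 percentile points between the nearest libraries. Neither group of libraries overlapped the other at these 2 regions.

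Col5a2 had 2 open regions besides its start. The region in intron 6 at +71.2 kb (45431980 to 45432328) had folds of 20.5 and 16.0 in Control and 15.3 and 16.1 in TRF2KO. The region beyond the 3′ end at +147 kb from the start (45355905 to 45356529) had 13.6 and 16.6 in Control and 15.3 and 14.3 in TRF2KO. The first was lower in TRF2KO by percentile and overlapped by shared percentile, and the second overlapped on both.

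Regions listed in both libraries of a single genotype and missing from the other were few and weak. Control-specific regions numbered 5 of 117, near the 4.48% of all regions, and there was 1 TRF2KO-specific region, against 1.12%. In Col5a1 they lay in intron 1 at +27.5 kb (27913875 to 27914078, folds 3.68 and 3.60), intron 4 at +53.1 kb (27939427 to 27939736, 3.45 and 2.52) and intron 18 at +83.0 kb (27969152 to 27969522, 3.22 and 4.50). At Col5a3 the region at the start of the neighbouring retinol dehydrogenase gene Rdh8 (20818330 to 20818570) had 4.83 and 5.58, and at Col6a1 a region beyond the 3′ end (76694836 to 76695158) had 3.22 and 3.96. With absence also required of the callers SEACR and GoPeaks, 2 of the 5 were left. The TRF2KO-specific region was in Col5a2 intron 12 at +83.2 kb (45420000 to 45420798), with folds of 3.43 and 3.63, and neither SEACR nor GoPeaks listed it in any library.

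TRF2 peaks were counted in the 6 windows. The TRF2 libraries had 8 and 11 peaks there, of which 6 formed 3 TRF2 regions, and the IgG library had none. All 3 regions were in the Col5a3 window, where 41.9% of coding windows held at least 1 region and 2.13% held as many as 3. At the start, the peaks ran from 20815026 to 20815298 in replicate 1 and from 20814987 to 20815335 in replicate 2, with folds of 4.39 and 4.03, and 22.0% of coding genes had a TRF2 region within 1 kb of the start. Among genes whose start was open in all 4 ATAC libraries that share was 36.3%, and Col5a3 was the member called among 5.

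In Col5a3 intron 1 the TRF2 peaks ran from 20812674 to 20813029 and from 20812708 to 20813203, with folds of 5.23 and 5.31 and 12 and 13 fragments at the summit. Beyond the 3′ end they ran from 20760849 to 20761215 and from 20760814 to 20760986, with folds of 3.91 and 4.37 and 7 and 8 fragments. Every TRF2 peak of the 6 windows rested on 5 to 13 summit fragments over a background of 0.46 to 1.64, so the positions are those of small counts. No TRF2 region was left with a -log10 q of at least 5.

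The 3 TRF2 regions lay inside open ATAC regions. At the intronic region the ATAC fold was 54.8 and 47.7 in Control against 34.1 and 37.2 in TRF2KO, lower on each scale. At the start the libraries overlapped by fold, and beyond the 3′ end the percentiles differed by -0.43 points with folds that overlapped. Over the genome, open regions that overlap a TRF2 region were lower by percentile at 33.8% and higher at 10.5%, and by shared percentile at 17.5% and 35.0%. By both percentiles all 3 Col5a3 regions were lower. Over the 6 windows 12 open regions overlapped a TRF2 peak of either library. By percentile 9 were lower and 0 higher, against 36.8% and 10.1% of the 13520 such regions in the genome. By shared percentile 9 were lower and 1 higher, against 19.8% and 35.6%. By fold 6 were lower, where 29.9% of all open regions were, and the share among regions with a TRF2 peak was not computed. Over all 54 open regions of the windows, with or without a TRF2 peak, 66.7% were lower by percentile. By shared percentile 57.4% of these 54 were lower, and by fold 50%. A link of TRF2 peaks with lower values inside the windows was not tested. The TRF2 backgrounds of this paragraph were not matched for distance from a gene start. By percentile 28.6% of coding starts were lower, against 44.1% of all open regions.

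Peaks of a single TRF2 library were found at 4 genes. Col5a1 had 2 in replicate 1, in intron 1 at +31.0 kb (fold 5.92) and in intron 12 at +75.0 kb (6.18). It had 2 in replicate 2, at -11.9 kb (5.81) and in intron 4 at +50.5 kb (3.95). The last lay inside the strongest ATAC region of that gene. Col5a3 had 1 in each, at -7.74 kb inside Rdh8 (5.90, with no ATAC peak) and at -15.9 kb (4.35). Col6a1 had 1 in replicate 1 at its start (4.26, 10 fragments) and 2 in replicate 2, in intron 4 at +4.54 kb (3.49) and at -4.35 kb (4.27). Col6a3 had 1 in replicate 1 at -14.0 kb (4.11) and 3 in replicate 2, the strongest of which, in intron 1 at +9.01 kb, had the highest fold of all (8.53, 13 fragments), beside coding exon 40 (4.13) and +85.7 kb (4.63). Col5a2 and Col6a2 had none. Of the 19 TRF2 peaks, 14 overlapped an ATAC peak in all 4 libraries.

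Of the 3 TRF2 regions 1 held a G4 match, where 35.5% of 7414 TRF2 regions did. It was the intron 1 region, whose match lies in the capitals printed for it. That whole match lay in the replicate 2 peak only, since the replicate 1 peak ended inside it. The start and the 3′ region held none, although with loops of up to 12 bases both TRF2 peaks at the start held one. Over the single peaks, the Col6a1 start peak and the Col6a3 peak at -14.0 kb also held matches, and no peak held 3 consecutive telomeric repeats. The Col5a1 and Col6a2 promoters printed above, with several matches each, had no TRF2 peak.

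Short patterns were counted in 500 bp at the Control replicate 1 summit of the open regions. GTGGGAA, read on both strands, was in 5 of 54 regions (9.26%), against 12.4% of all open regions. CAGCTG, the E-box letters bound by myogenic factors, was in 24 (44.4%), against 42.6%. TGANTCA, the letters of AP-1, was in 19 (35.2%), against 20.8%. A match describes letters only, and AP-1 was the pattern with a share above the background by more than 10 points. AP-1 letters were in 7 regions of Col5a1, 4 of Col5a3, 3 each of Col6a1 and Col6a3, and 1 each of Col5a2 and Col6a2.

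The regions with GTGGGAA are shown since RBPJ relays Notch signals to collagen V genes. Capitals mark the 7 letters within 41 bases on the strand that reads GTGGGAA.
Col5a1 upstream at -15.4 kb, chr2:27871038-27871078, minus strand: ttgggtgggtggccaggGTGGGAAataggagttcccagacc
Col5a1 intron 1 at +2.78 kb, chr2:27889184-27889224, minus strand: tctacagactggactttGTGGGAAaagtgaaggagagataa
Col5a1 intron 1 at +8.70 kb, chr2:27895108-27895148, plus strand: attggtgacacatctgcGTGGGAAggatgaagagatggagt
Col5a1 intron 1 at +8.78 kb, chr2:27895186-27895226, minus strand: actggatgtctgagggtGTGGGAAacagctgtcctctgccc
Col5a3 beyond the 3′ end at +54.15 kb, chr9:20760894-20760934, plus strand: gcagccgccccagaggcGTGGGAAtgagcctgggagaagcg
Col6a2 upstream at -19.6 kb, chr10:76643207-76643247, minus strand: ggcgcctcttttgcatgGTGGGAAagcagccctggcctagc
The region at +8.76 kb of Col5a1, with 2 matches of opposite strands, was lower in TRF2KO with folds of 12.2 and 9.18 against 7.78 and 6.36, as was the upstream region at -15.45 kb with 11.3 and 8.10 against 7.32 and 7.26. The wide start region of Col5a1 and the Col6a2 region, with 1 match each, overlapped between the groups by percentile. The Col5a3 match lay in the TRF2 region beyond the 3′ end, inside an open region lower by percentile. Of all open regions 44.1% were lower by percentile, and of those in the 6 windows 66.7%. Both TRF2 peaks of Col5a3 intron 1 also held GTGGGAA, outside the run printed for that region and outside the 500 bp counted here.

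Genes that act with these collagens were counted by their start sites. Of 42 listed genes 35 were open in all 4 libraries, and 11 were lower and 5 higher by percentile, against 28.6% and 9.13% of coding starts. Ranked among coding starts, 14 were lower and 5 higher, against 21.9% and 23.2%. TRF2 regions lay at the start of 10 of the 42, where 22.0% of all coding genes and 36.3% of those with an open start had one.

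Receptors and binding partners had start-site peaks in all 4 libraries at 11 of 11, with 3 lower and 0 higher by percentile and 6 lower and 0 higher among coding starts. Calcr, the Calcitonin receptor that collagen V engages on MuSCs, had folds of 44.2 and 41.2 in Control and 45.7 and 38.6 in TRF2KO. These overlapped by fold and percentile, and ranked among coding starts Calcr was lower in both TRF2KO libraries. The collagen-binding receptor kinase Ddr1 had 18.6 and 17.5 in Control and 11.2 and 12.5 in TRF2KO, the lowest difference of the group at -12.0 points, and Cspg4 the highest at -0.066 points. Antxr2, a collagen VI receptor, had 90.2 and 76.1 against 69.8 and 70.6 and a TRF2 region at its start.

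Chain biosynthesis genes, which hydroxylate, fold and export procollagen, gave 3 lower and 3 higher of 12, and 2 lower and 3 higher among coding starts. P4ha2, a prolyl hydroxylase subunit, had the highest difference at 5.45 points, with folds of 22.1 and 24.3 in Control and 36.4 and 32.7 in TRF2KO. The collagen chaperone Serpinh1 had the lowest at -3.15 points, with 75.7 and 58.1 against 59.9 and 54.0. Against the same backgrounds, TRF2 regions lay at 6 of the 13 starts of this group, P4ha1, P4hb, Plod2, P3h1, Ppib and Mia3.

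Extracellular processing genes were lower at 3 and higher at 1 of 7 on both scales. Furin, a proprotein convertase, had the lowest difference at -24.5 points, with 40.0 and 31.3 in Control and 34.8 and 5.90 in TRF2KO, so 1 TRF2KO library carried most of it. Tll1 had the highest at 6.51 points, with 4.37 and 11.5 in Control and 5.72 and 12.9 in TRF2KO, which overlapped. Of the 3 matrix partners with a start-site peak in all 4 libraries 1 was lower, and 2 among coding starts. Fn1 was lowest at -2.29 points (37.1 and 35.3 against 33.8 and 34.3), and Bgn was highest at -0.35 points (14.5 and 10.4 against 14.4 and 11.6). Of the other collagen VI chains, Col6a5 was higher (9.67 and 6.66 in Control against 11.2 and 12.0 in TRF2KO), Col6a6 lower (17.5 and 17.5 against 13.3 and 14.8) and Col6a4 without a start-site peak. Coding neighbours in the windows were Rdh8, described above, and Ftcd next to Col6a2, which had no start-site peak in any library.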

How the data were processed

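The 4 ATAC-seq and 3 CUT&Tag libraries were grouped by their titles. By the methods and processing notes, the authors trimmed adapters, aligned reads to mm10 with Bowtie2, removed duplicates with Picard and called peaks with MACS3, SEACR (stringent) and GoPeaks, and combined callers with DiffBind. Thresholds, a transposase shift and the use of IgG in calling are not given in the sources used here. Each deposited MACS peak carries a fold (a ratio of summit to background) and −log10 p and −log10 q values, all per library. The deposited consensus lists, taken as pooled per genotype, gave no value printed here.

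Peaks on chromosomes 1 to 19, X and Y were merged where they shared 1 bp. Percentiles of the fold were compared between genotypes, and a region was called lower or higher where both TRF2KO libraries were below or above both Control libraries. Totals and start sites were compared by exact two-sided permutation tests of the group means. Gene models came from GENCODE M21 (exons by the first numbered transcript). Python 3.11.15, numpy, pandas and scipy were used, and scripts were tested on simulated data.

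Named were, by rule, all members, TRF2 peaks, genotype-specific regions, the 2 strongest open regions of each member besides its start, the regions with the largest gaps (2 per member and direction), and the lowest and highest gene of each pathway group; Calcr, Antxr2, P4ha1, P4hb, Plod2, P3h1, Ppib and Mia3 were added after their values were seen, as was the +9.68 and +20.6 kb pair of Col5a3. The members and lists were chosen with earlier results of these data known. The shared percentile, the fold scale and the share of each list were added after seeing the data.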

Additional observations from a re-analysis of the deposited data

How the results depend on the processing

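Of 115 alternatives over 16 results, 80 left the direction, or a count within 1.5 times, as reported. These include the replicate block, which cannot move a difference. They also include start-site settings that gave identical values: peaks within 3 kb, peaks that overlap the start, and the rank of the -log10 p. The peak number in the 6 windows turned from -16.5 to 3.50 under SEACR, and ranged from -29.5 to -3.50 when 1 library was left out, with the smallest difference without Control replicate 2; base pairs ranged from -20.1 to -8.72 kb in the same way and were -76.8 kb under SEACR. Start-site percentile differences of Col5a1, near 0, turned to 0.22 among peaks near a gene start and 0.92 among regions open in all 4 libraries, and ranged from -0.35 to 0.31 with 1 library left out. Col6a1 and Col6a2 turned to 0.43 and 0.75 points among regions open in all 4 libraries, and to 0.14 and 0.68 without Control replicate 2, within ranges from -2.30 to 0.14 and from -1.67 to 0.68. The cause of these turns was not tested. Col5a2 and Col5a3 kept their direction in all alternatives run.

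Control-specific regions, 5 as reported, numbered 0 under SEACR, 1 under GoPeaks, 2 with a -log10 q of at least 5, 2 with absence required of all callers, 8 where a peak had to cover 0.5 of a region and 3 in gene bodies only, and from 6 to 35 with 1 library left out, most without Control replicate 1. TRF2KO-specific regions, 1 as reported, numbered 0 under SEACR, under GoPeaks and with a -log10 q of at least 5, and from 1 to 7 with 1 library left out. Fewer libraries ask less of a specific region. Non-overlapping regions, 36 lower and 2 higher, were 16 and 0 with a gap of at least 5 points (16.8% and 2.21% of all open regions), 20 and 1 without the Col5a1 window, and 10 higher by shared percentile and 5 by fold. TRF2 regions, 3 as reported, were 16 for a peak in either library, 8 and 11 in replicates 1 and 2 alone, and 0 with a -log10 q of at least 5. With loops of up to 12 bases 2 TRF2 regions held a G4 match, those of Col5a3 intron 1 and the Col5a3 start. TRF2 peaks with a match rose from 3 to 7 of 19.

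Replicate numbers were shared between genotypes, but nothing in the labels pairs the libraries, and same-numbered deviations had a correlation of 0.013 over 61610 regions. With the replicate block a difference of group means is the same by arithmetic, so this setting could not move any of them. The differences were -16.5 peaks and -14.4 kb (exact sign-flip p = 0.5, the smallest that 2 pairs can give). The start-site differences were -0.020, -4.16, -3.39, -1.08 and -0.50 points for Col5a1, Col5a2, Col5a3, Col6a1 and Col6a2. Col6a3 has no start-site peak and gave no value. Depth limits the CUT&Tag results, since no peak of the windows had more than 13 summit fragments.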
